A study of Mus musculus with 18 samples.

Results

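The 9 genes described here encode proteins with a part in calcium release and uptake in heart muscle, where the sarcoplasmic reticulum is the calcium store of the cells. They are Ryr2, Casq2, Trdn, Asph, Jph2, Atp2a2, Pln, Slc8a1 and Camk2d, chosen by name, each with 2000 bases added on both sides of its GRCm38 span. They are 9 of 21887 protein-coding genes in the gene table used. Peaks touched them in 79 of the 152196 regions that held a peak in at least 1 library. DNA methylation was measured by methylated DNA immunoprecipitation sequencing (MeDIP-seq), in which an antibody against 5-methylcytosine enriches methylated fragments. The mice were male C57BL/6JR, as the series text writes the strain, and 12 weeks old. In 5 groups the left anterior descending coronary artery was tied, which causes myocardial infarction (MI), and the heart was taken 10 min or 1, 6, 24 or 72 h later. Sham mice had the suture placed and left untied. The labels give the sham samples a time of 0 h, with no sham group for each later time. MI and time since the operation can therefore not be told apart in a difference from sham. Each of the 6 groups holds 3 mice with 1 library each, 18 libraries in all. All groups had sodium pentobarbital before the operation and isoflurane at the end. The series text gives 50 mg per kg of pentobarbital, while the labels of the MI samples run from 50 in the first 2 samples to 63 in the last, rising by 1 from each sample to the next. Whether these were doses given or an error in the labels was not tested, and no test here includes them. The labelled values rise with the time after the operation, so if they were given, dose and time cannot be told apart.

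With each heartbeat, calcium entering the cell opens ryanodine receptors in the membrane of the store, the stored calcium floods the cell and the filaments contract. A pump then returns calcium to the store and an exchanger in the outer membrane carries the rest out, so the muscle relaxes. This cycle is known to be disturbed in the failing heart. Cytosine methylation at a gene's start commonly goes with low transcription, while methylation within gene bodies is found in active genes too.

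The value used below is the covered share, the percentage of a gene's span with its flanks that lay under the peaks of a library. It says how much of the gene held enough enriched DNA to be called, not which percentage of molecules was methylated. The lists held 34255 to 60653 peaks a library, and all protein-coding genes together had a covered share of 1.78% to 2.85%. The labels name heart tissue as the source and heart muscle cells as the cell type, without describing how cells were separated. Peak lists hold no expression, so this could not be checked on marker RNA. A change of methylation within a cell type and a change in the mix of cell types cannot be told apart in such libraries.

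RefSeq windows (GRCm38.p6, 250 bases before to 50 after a gene's start) were matched for 6 of the 9 genes, with 2 starts for Jph2. Atp2a2, Trdn and Asph had no window in the table. The 4 sequences below are the parts of the windows that lie outside the gene. They are shown because the peaks nearest a start belonged to Jph2 and Slc8a1, while Ryr2 and Pln had none in their windows. Each runs 5′ to 3′ on the gene's strand, and capitals mark every CG, the pair of bases at which mammalian DNA is mostly methylated. CG reads the same on both strands.
Jph2, chr2:163398050-163398243, minus strand: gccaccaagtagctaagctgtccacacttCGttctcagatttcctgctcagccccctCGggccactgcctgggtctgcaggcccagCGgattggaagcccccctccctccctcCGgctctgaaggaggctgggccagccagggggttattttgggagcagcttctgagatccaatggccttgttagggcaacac
Slc8a1, chr17:81738388-81738637, minus strand: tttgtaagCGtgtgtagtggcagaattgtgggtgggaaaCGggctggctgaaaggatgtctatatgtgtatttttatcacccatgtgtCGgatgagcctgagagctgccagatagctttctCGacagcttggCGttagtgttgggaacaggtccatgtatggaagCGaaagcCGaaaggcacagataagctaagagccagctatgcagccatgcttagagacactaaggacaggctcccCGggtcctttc
Ryr2, chr13:12106946-12107195, minus strand: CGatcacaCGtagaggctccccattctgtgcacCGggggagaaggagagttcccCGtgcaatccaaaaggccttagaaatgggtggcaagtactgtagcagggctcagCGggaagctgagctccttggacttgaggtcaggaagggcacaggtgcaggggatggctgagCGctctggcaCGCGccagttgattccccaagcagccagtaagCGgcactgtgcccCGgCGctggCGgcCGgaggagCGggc
Pln, chr10:53337436-53337685, plus strand: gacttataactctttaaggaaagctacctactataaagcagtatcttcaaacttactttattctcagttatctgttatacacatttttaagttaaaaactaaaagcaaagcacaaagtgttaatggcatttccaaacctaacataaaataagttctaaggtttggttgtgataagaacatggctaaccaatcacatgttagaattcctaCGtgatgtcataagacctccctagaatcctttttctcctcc

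In the full windows of 300 bases the CG count was 31 for Camk2d, 18 for Ryr2, 9 for Slc8a1, 7 and 8 for the outer and the inner start of Jph2, 6 for Casq2 and 1 for Pln. Among the 32851 windows of all genes 94.6% held at least 1 CG, and the median was 7. Camk2d stood near the top, with 10.6% of windows at its count or above, and Pln near the bottom, with 14.1% at its count or below. Windows with 6 to 14 CG were touched by a peak of any library in 19.2% of cases, against 2.21% of windows with 15 or more. The starts of Slc8a1, Jph2 and Casq2 fell in the first of these classes and those of Ryr2 and Camk2d in the second. A peak lay across the Slc8a1 window in 1 library (10 min replicate 1, chr17:81738244-81738861, score 54.8). The inner Jph2 window was touched at its last base in 1 library (72 h replicate 2). No peak of the 18 lists touched the windows of Ryr2, Casq2, Pln or Camk2d.

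Less of the summed span of these 9 genes lay under peaks than of protein-coding genes as a whole. Summed over the 9 spans, the covered share of each library was 23.5% to 50.04% of the value for all protein-coding genes in that library, so it was lower in 18 of 18. The group mean was 0.786% ± 0.225 in sham (SD, n = 3 for each group). For the MI groups, 10 min gave 0.805% ± 0.186, 1 h gave 0.543% ± 0.0699, 6 h gave 0.748% ± 0.138, 24 h gave 0.936% ± 0.126 and 72 h gave 1.15% ± 0.211. The lists themselves also differed in length: all protein-coding genes had 2.40% ± 0.380 in sham and 2.59% ± 0.237 in the 72 h group. As a percentage of the value for all genes, the 9 genes had 25.5% to 37.0% in sham, 23.5% to 29.6% in the 1 h group, 40.1% to 46.2% in the 24 h group and 36.1% to 50.04% in the 72 h group. The 24 h libraries lay above the sham libraries on this scale, and those of 1 h and 72 h overlapped them. The sum was not tested, because the genes were chosen with results of these data known. Long genes weigh most in the sum. By mean covered share over the 18 libraries, Jph2 ranked above 66.8% of all protein-coding genes and Asph above 51.6%. Camk2d ranked above 40.6%, Ryr2 39.3%, Casq2 39.2%, Slc8a1 37.8%, Pln 31.9%, Atp2a2 26.2% and Trdn 25.1%. Against genes with a span of at least 50000 bases, these ranks were 67.4% for Jph2, 42.7% for Asph and 5.05% to 24.8% for the others.

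**Figure D1:**
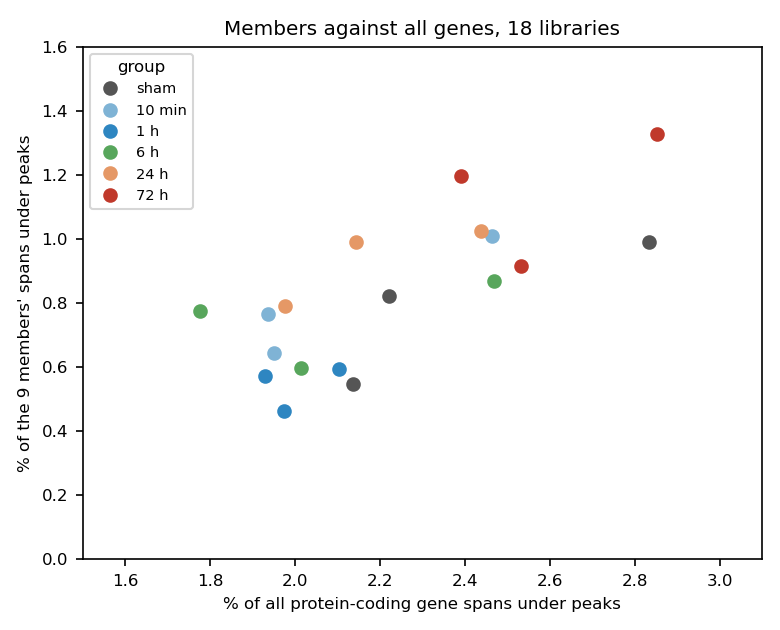
Each point is 1 of 18 libraries. The x axis gives the percentage of all protein-coding gene spans under peaks and the y axis the percentage of the 9 calcium cycling gene spans under peaks, with colours for the groups. The y values run from 0.463% to 1.33% and the x values from 1.78% to 2.85%, and libraries with more of all genes under peaks tend to have more of the 9 genes under peaks.

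Of the 79 regions, 31 (39.2%) had a peak in 1 library alone, 15 (19.0%) in at least 9 libraries and 2 (2.53%) in all 18. For the 79216 regions at any protein-coding gene these shares were 29.8%, 23.2% and 3.57%. The 346 peaks at the 9 genes had a median score of 72.85, next to 72.11 for the peaks of all lists, and 17.6% reached a score of 100, next to 21.7%. The score is a value the authors gave each peak, 50 at the lowest, and it only describes or filters peaks here.

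**Figure D2:**
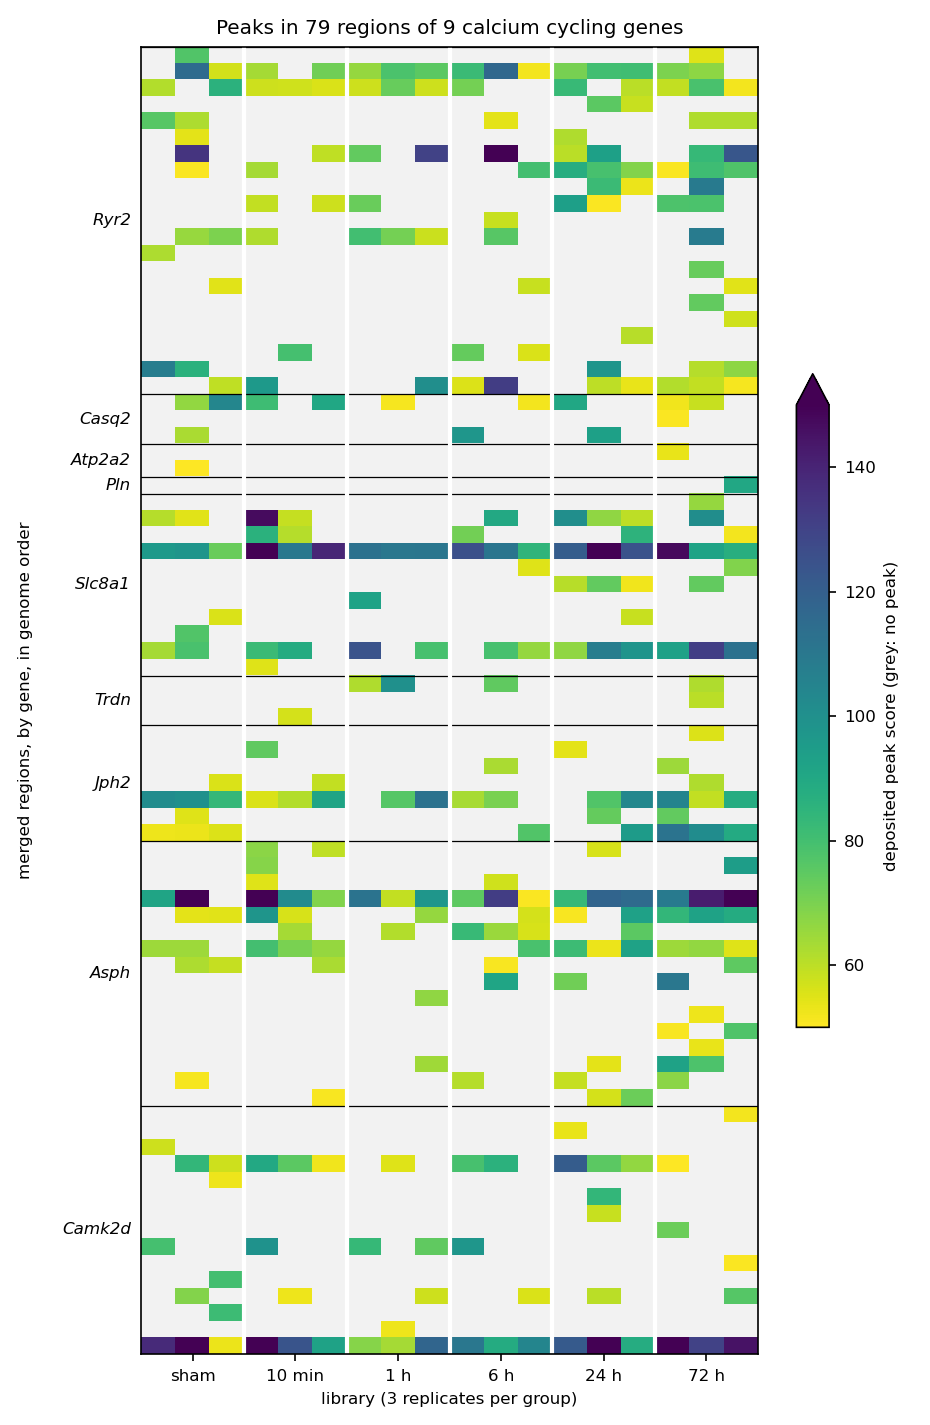
Each row is 1 of the 79 regions, in genome order within its gene, and each column is 1 of 18 libraries, with 3 per group. Colour gives the deposited peak score and grey means no peak. A few rows are filled across most libraries (1 in Slc8a1 and 1 in Camk2d in all 18), while 31 rows hold a single peak.

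Ryr2 encodes the ryanodine receptor, the channel through which the store empties. The gene (chr13:11553099-12106945) is the longest of the set and held 21 regions. Its covered share in the sham libraries was 0.504%, 0.986% and 0.897%. Among the MI groups, 10 min gave 0.952%, 0.423% and 0.60%, 1 h gave 0.708%, 0.554% and 0.732%, 6 h gave 0.638%, 0.780% and 0.784%, 24 h gave 0.809%, 1.19% and 1.05% and 72 h gave 0.623%, 1.82% and 1.27%. The 2 highest values came from the 72 h group, but its lowest library lay among those of sham, and every MI group overlapped sham. The 72 h mean was 0.44 percentage points above that of sham (SE 0.25, limma adjusted p = 0.788). This difference was 0.153 without 72 h replicate 2, 0.752 without 72 h replicate 1, 0.156 with lists reduced to equal numbers of top peaks and 0.00681 with peaks of a score of 100 or more. The Ryr2 region with a peak in the most libraries (15 of 18) was chr13:11611628-11612904, 494041 bases downstream of the start. Another, chr13:11737606-11738948, had a peak in each library of the 24 h and 72 h groups, in 1 of 3 in sham and in 0 of 3 in the 1 h group. It was chosen after its values were seen, and the share of all regions with such a pattern was not computed. The region nearest to the start, chr13:12102095-12103287, began 3658 bases downstream and had a peak in 10 libraries, among them the 3 of the 72 h group and 1 of sham.

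Casq2 encodes cardiac calsequestrin, which binds calcium inside the store, and Trdn encodes triadin, which links calsequestrin to the ryanodine receptor. Casq2 (chr3:102086415-102146514) held 3 regions, and 7 of 18 libraries had no peak there. Its covered share was 0%, 2.70% and 1.29% in sham and 2.02%, 1.06% and 0% in the 72 h group. Both groups ran from 0 to above 2% and overlapped. The region with the most libraries, chr3:102116501-102117884, had a peak in 9 of 18, with 1 or 2 of 3 in every group. Trdn (chr10:33083483-33476709) is longer than Slc8a1 but held 3 regions against 11. Its covered share was 0% in 13 libraries, among them the 3 of sham and the 3 of the 24 h group, and the highest value was 0.464% (72 h replicate 2). Its most frequent region, chr10:33201835-33202803, had a peak in 4 libraries, 2 of them from the 1 h group. By mean covered share over the 18 libraries Trdn ranked above 25.1% of all protein-coding genes, and above 5.05% of those with a span of at least 50000 bases.

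Asph encodes junctin, a partner of triadin at the release channel, and from the same gene also the enzyme aspartate beta-hydroxylase. The gene (chr4:9449085-9669344) held 16 regions. Its covered share in the sham libraries was 0.685%, 1.88% and 0.811%. Among the MI groups, 10 min gave 2.11%, 1.73% and 1.90%, 1 h gave 0.247%, 0.734% and 1.32%, 6 h gave 1.13%, 2.67% and 1.69%, 24 h gave 2.16%, 1.82% and 1.83% and 72 h gave 2.54%, 2.50% and 2.36%. All 3 libraries of the 72 h group lay above all 3 of sham, and the other MI groups overlapped sham. The mean was 1.13% ± 0.658 in sham and 2.47% ± 0.0939 in the 72 h group (SD, n = 3 each), a difference of 1.34 percentage points (SE 0.40). The exact permutation p was 0.1, the smallest that 3 against 3 can give, and across the 14581 genes tested the difference did not pass (limma unadjusted p = 0.00446, adjusted p = 0.440). Every library was higher than sham in the 72 h group for 5.64% of these genes. The difference was 1.02 with lists reduced to equal numbers of top peaks and 0.50 with peaks of a score of 100 or more. Marker genes of other kinds moved in the same libraries. The summed covered share of 10 heart muscle markers was 4.51% to 5.37% in the 72 h group, above the 1.58% to 4.08% of sham, with a peak at 8 of the 10 in both groups. For 10 leukocyte markers it was 1.02% to 1.19%, above the 0.359% to 0.863% of sham, with a peak at 3 of the 10 against 2. Cd68, Lyz2, Ly6g, S100a8, S100a9 and Ccr2, 6 of the leukocyte markers, had no peak in any of the 18 libraries. Fibroblast and endothelial markers overlapped sham. The part of these in the Asph value was not tested.

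Within Asph, chr4:9519087-9520306 was the most constant region, with a peak in 17 of 18 libraries and scores from 50.8 to 184. It was missing in sham replicate 3. The region chr4:9537350-9538532 had a peak in 3 of 3 libraries of the 6 h group, in 0 of 3 in sham and in the 72 h group, and in 1 of 3 in each remaining group. Its scores in the 6 h group were 82.7, 64.9 and 56.0. A region is called gained where all 3 libraries of a time have a peak and none of sham does, and lost in the opposite case. This was the 1 region of 79 gained at 6 h, next to 0.201% of all regions. The region chr4:9560671-9562192 had a peak in every library of the 10 min, 24 h and 72 h groups, in 2 of 3 in sham, in 1 of 3 in the 6 h group and in 0 of 3 in the 1 h group. This region too was chosen after its values were seen, without a share over all regions.

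Jph2 encodes junctophilin 2, which holds the outer membrane close to the store so that entering calcium meets the release channel. The gene (chr2:163336242-163398049) had the highest mean covered share of the 9, 2.89% ± 1.52 over the 18 libraries (SD), and was above the value for all genes in 12 of them. Its covered share in the sham libraries was 2.50%, 4.01% and 4.42%. Among the MI groups, 10 min gave 3.56%, 1.66% and 2.78%, 1 h gave 0%, 1.47% and 1.52%, 6 h gave 1.81%, 2.83% and 2.19%, 24 h gave 1.28%, 3.87% and 3.40% and 72 h gave 5.00%, 6.25% and 3.46%. All 3 libraries of the 1 h group lay below all 3 of sham, and the other MI groups overlapped sham. The mean was 3.64% ± 1.01 in sham and 0.997% ± 0.864 in the 1 h group (SD, n = 3 each), a difference of -2.64 percentage points (SE 0.87). The exact permutation p was again 0.1, and the difference did not pass across all genes (limma unadjusted p = 0.00826, adjusted p = 0.750). Every library was lower than sham in the 1 h group for 7.08% of the genes tested. In the same libraries the leukocyte markers had a summed covered share of 1.12% to 1.23%, above the 0.359% to 0.863% of sham, with a peak at 4 of the 10 against 2, while the heart muscle markers (3.04% to 3.97%) overlapped sham. The part of these in the Jph2 value was not tested. With lists reduced to equal numbers of top peaks the difference was -0.304, and with peaks of a score of 100 or more it turned to 0.109. The 72 h mean was 1.26 percentage points above that of sham (SE 0.87, limma adjusted p = 0.857). It was 0.589 without 72 h replicate 2, 0.688 without sham replicate 1 and 1.98 without 72 h replicate 3.

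Presence of a peak beside the start of Jph2, at chr2:163396393-163397924, differed between the groups. It lay 49 to 1580 bases downstream of the inner RefSeq start, inside the gene and next to the Jph2 sequence printed above. All 3 sham libraries had a peak there, then 0 of 3 in the 10 min and 1 h groups, 1 of 3 in the 6 h and 24 h groups, and again all 3 in the 72 h group. It was the 1 region of 79 lost at 10 min and the 1 of 79 lost at 1 h, next to 0.624% and 0.553% of all regions. The sham peaks scored 52.5, 52.8 and 55.5, close to the lowest score of the lists. In the 72 h group the scores were 112, 101 and 88.8, and the single peaks of the 6 h and 24 h groups had 77.1 and 95.1. Within their own lists 6.98%, 7.17% and 16.7% of peaks scored lower than the sham peaks, against 80.1%, 75.4% and 71.7% for those of the 72 h group. Neither the scores nor these ranks overlapped between the sham and 72 h groups. The share of all regions that separate in this way was not computed, and the region was named for its place and presence pattern. When the 34255 top-scoring peaks were taken from each library, the region was found in 0 of 3 sham libraries and in 3 of 3 of the 72 h group, so it was then gained at 72 h and lost at no time.

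**Figure D3:**
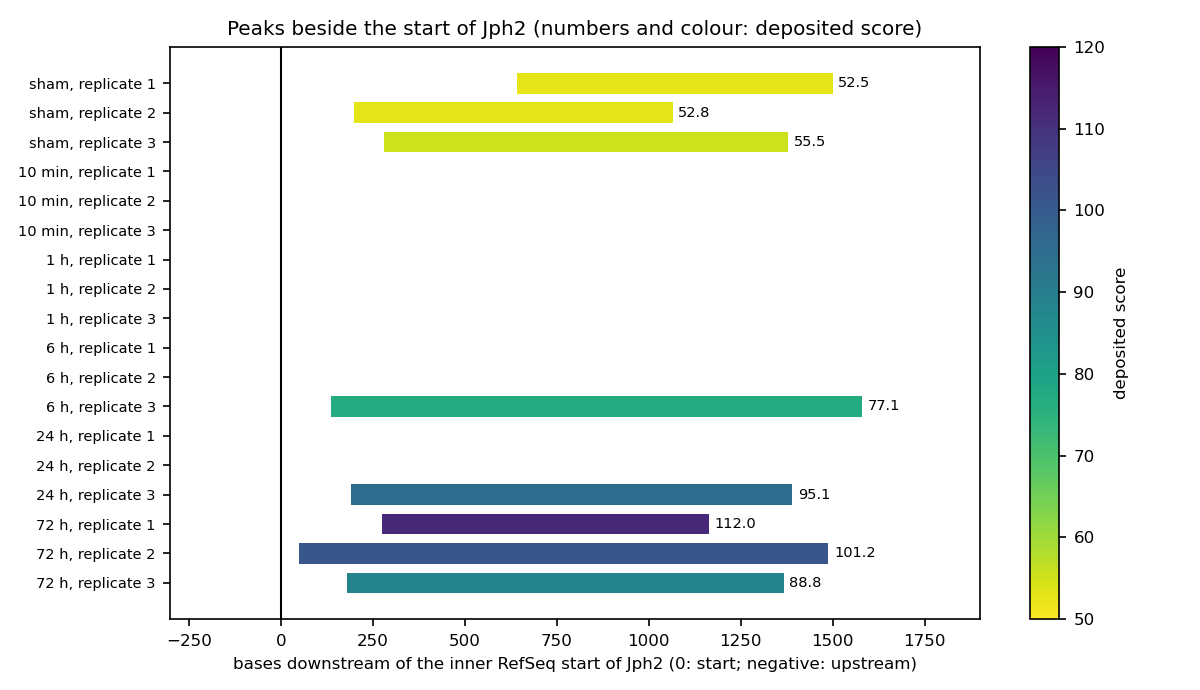
Peaks in the region beside the start of Jph2, with 1 line for each of 18 libraries. The x axis gives the distance in bases downstream of the inner RefSeq start (vertical line at 0), and bar colour and number give the deposited score. Peaks are seen in the 3 sham libraries (52.5 to 55.5), in 1 library each of the 6 h and 24 h groups, and in the 3 of the 72 h group (88.8 to 112).

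A second recurrent Jph2 region, chr2:163374167-163375663, lay deeper in the gene, 22310 bases downstream of the start. It had a peak in 15 of 18 libraries, with all 3 in sham, the 10 min group and the 72 h group and 2 of 3 elsewhere. Its scores ran from 83.3 to 101 in sham and from 59.0 to 105 in the 72 h group, and these overlapped, unlike those beside the start.

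Atp2a2 encodes SERCA2, the pump that refills the store, and Pln encodes phospholamban, the small protein that holds the pump back. Both genes were nearly free of peaks. Atp2a2 (chr5:122453513-122502225) had a covered share of 0% in 16 of 18 libraries. The exceptions were 1.18% in sham replicate 2 and 1.26% in 72 h replicate 1, from separate peaks (chr5:122465737-122466359 and chr5:122461431-122462094) with scores of 50.2 and 53.4. Pln (chr10:53337686-53345999) had 1 peak in the 18 lists, in 72 h replicate 3, at chr10:53343326-53344288 and 5640 bases downstream of its start. Its score was 89.99, and because the gene is short it gave that library a covered share of 7.82%. The other 17 libraries had 0%. Neither gene entered the test across all genes, which asked for a peak in at least 3 libraries.

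Slc8a1 encodes the sodium-calcium exchanger that carries calcium out of the cell. The gene (chr17:81373105-81738387) held 11 regions. Its covered share in the sham libraries was 0.607%, 0.831% and 0.401%. Among the MI groups, 10 min gave 1.28%, 1.06% and 0.152%, 1 h gave 0.542%, 0.298% and 0.378%, 6 h gave 0.543%, 0.758% and 0.845%, 24 h gave 0.747%, 0.882% and 1.58% and 72 h gave 0.528%, 1.00% and 1.26%. Every MI group overlapped sham, and the 10 min and 24 h libraries spread the widest. The 72 h mean was 0.32 percentage points above that of sham (SE 0.30, limma adjusted p = 0.918), 0.518 without 72 h replicate 1, 0.211 without sham replicate 3 and 0.152 without 72 h replicate 3.

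The Slc8a1 region chr17:81431889-81433037, 305350 bases downstream of the start, had a peak in all 18 libraries. Its scores were 72.8 to 97.7 in sham. They were 110 to 167 in the 10 min group, 110 to 113 in the 1 h group and 120 to 156 in the 24 h group, all above sham, and 84.8 to 126 in the 6 h group and 87.2 to 148 in the 72 h group, which overlapped sham. Scores were not tested. The share of all regions whose scores lay apart from sham in this way was not computed. The region chr17:81470599-81471515 was the 1 region of 79 gained at 24 h, next to 0.393% of all regions, with scores of 60.8, 74.1 and 52.0. It was also found in 1 of 3 libraries of the 72 h group, and with lists reduced to equal numbers of top peaks it was left in 1 of 3 of the 24 h group.

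Camk2d encodes the delta form of calcium/calmodulin-dependent kinase II, which phosphorylates the release channel and phospholamban. The gene (chr3:126595487-126846326) held 15 regions, 11 of them with a peak in 1 library alone. Its covered share was 1.05%, 0.789% and 1.72% in sham and 0.757%, 0.179% and 1.42% in the 72 h group, and these overlapped, as did the other groups, which lay between 0.651% and 1.33%. The 72 h mean was 0.40 percentage points below that of sham (limma difference -0.40, SE 0.33, adjusted p = 0.902). It was -0.132 without sham replicate 3, -0.0951 without 72 h replicate 2 and -0.717 without 72 h replicate 3. Camk2d and Casq2 were the 2 tested members with a lower mean in the 72 h group than in sham. The region chr3:126839676-126840974, 242725 bases downstream of the RefSeq start, had a peak in all 18 libraries. Its scores were 138, 151 and 53.0 in sham, 63.6 to 118 in the 1 h group and 130 to 156 in the 72 h group, and both MI groups overlapped sham. The region chr3:126622804-126624261 had a peak in 12 libraries, among them the 3 of the 10 min and the 3 of the 24 h group but 1 of 3 in the 1 h and 72 h groups. This region too was chosen after its values were seen, without a share over all regions.

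**Figure D4:**
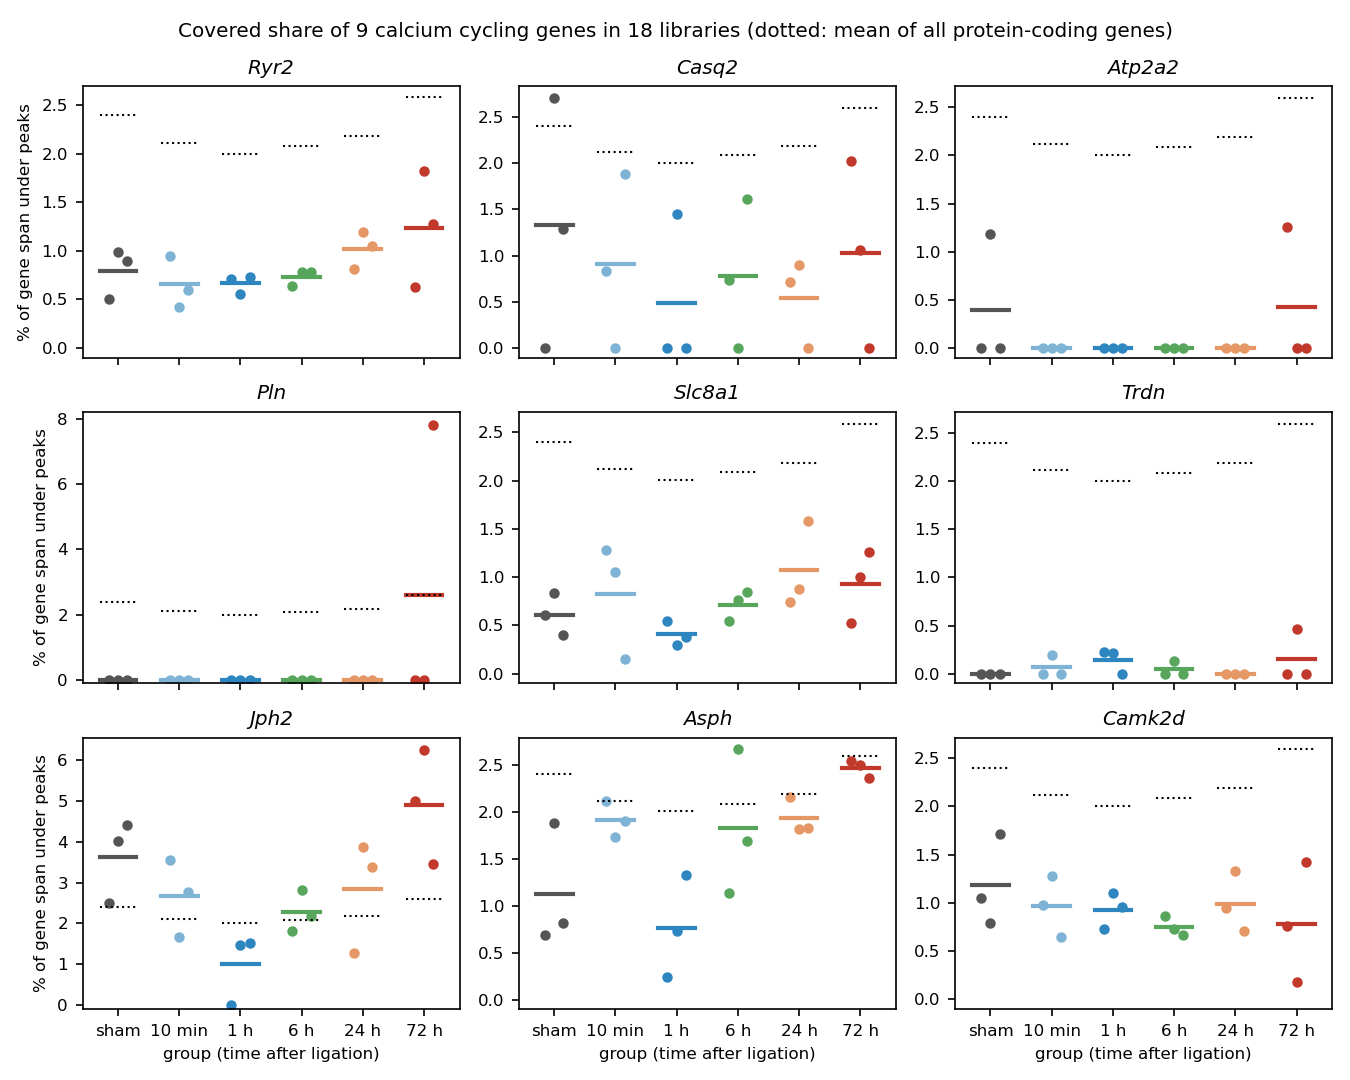
Covered share of each of the 9 genes, as % of the span with flanks (y axis, its range differs by gene), for the 3 libraries of each group (points, x axis) with the group mean (bar). Dotted lines give the group mean over all protein-coding genes. Jph2 lies below sham in the 3 libraries of the 1 h group and Asph above sham in the 3 of the 72 h group, and Atp2a2, Pln and Trdn are at 0 in most libraries.

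Whether the covered share changed after MI was tested with limma for 14581 genes, of which 7 were members. At 72 h against sham 0 of 7 passed an adjusted p of 0.05 (0.0411% of all genes did), and 1 of 7, Asph, had an unadjusted p under 0.05 (6.89% of all genes). At 1 h 0 of 7 passed (0% of all genes), with Jph2 as 1 of 7 at the unadjusted level (5.4%). For the 10 min, 6 h and 24 h groups 0 of 7 reached either level, with 0% of all genes at the adjusted level and 5.47%, 6.07% and 5.07% at the unadjusted one. All 15 MI libraries against the 3 of sham also gave 0 of 7 at both levels (0.0137% and 5.21% of all genes), and the lowest exact permutation p of a member was 0.152 (Asph). Over the 6 groups 0 of 7 passed (0.0411%), while Jph2 (limma F = 4.52, unadjusted p = 0.00978, adjusted p = 0.463) and Asph (limma F = 4.68, unadjusted p = 0.00848, adjusted p = 0.456) were at the unadjusted level, as were 7.41% of all genes.

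Apart from Asph at 72 h and Jph2 at 1 h, no member lay above or below sham in every library of a group. Among all genes tested, every library was higher for 2.25% at 10 min, 1.63% at 1 h, 2.21% at 6 h and 2.63% at 24 h, and every library was lower for 5.25% at 10 min, 5.4% at 6 h, 5.17% at 24 h and 2.96% at 72 h. Of the 79 regions none was gained at 10 min, 1 h or 72 h (0.216%, 0.225% and 0.719% of all regions) and none was lost at 6 h, 24 h or 72 h (0.706%, 0.524% and 0.397%).

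The later MI libraries (24 h and 72 h, n = 6) were also set against the earlier ones (n = 9). Jph2 had a mean of 3.88% against 1.98%, a difference of 1.90 percentage points (SE 0.56, exact permutation p = 0.0154, limma adjusted p = 0.255). Ryr2 had 1.13% against 0.686%, a difference of 0.44 (SE 0.16, exact permutation p = 0.00539, limma adjusted p = 0.350). For Asph the difference was 0.70 (SE 0.26, exact permutation p = 0.0484, limma adjusted p = 0.374). These 3 of 7 had an unadjusted limma p under 0.05, as did 9.66% of all genes, and 0 of 7 passed the adjusted threshold (0.123% of all genes). The exact permutation p values are for single genes and are not adjusted for the 9 examined. Nor do they allow for the choice of these genes with results of these data known. The median difference was 0.35 over the 7 members and 0.39 over all genes tested, and the later lists were the longer ones on average. Scaled to each library's share over all genes, the differences were 1.40 for Jph2, 0.304 for Ryr2 and 0.467 for Asph. With lists reduced to equal numbers of top peaks they were 1.04, 0.212 and 0.0766, and the median over all genes was then -0.0574. With peaks of a score of 100 or more the Ryr2 difference was -0.000906. Slc8a1 was 0.35 percentage points higher late (SE 0.19, limma adjusted p = 0.596), and 0.221 without 24 h replicate 3, which was then also the median over the members, while Casq2, Trdn and Camk2d differed by 0.0582, -0.00799 and 0.00384, each less than its SE.

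**Figure D5:**
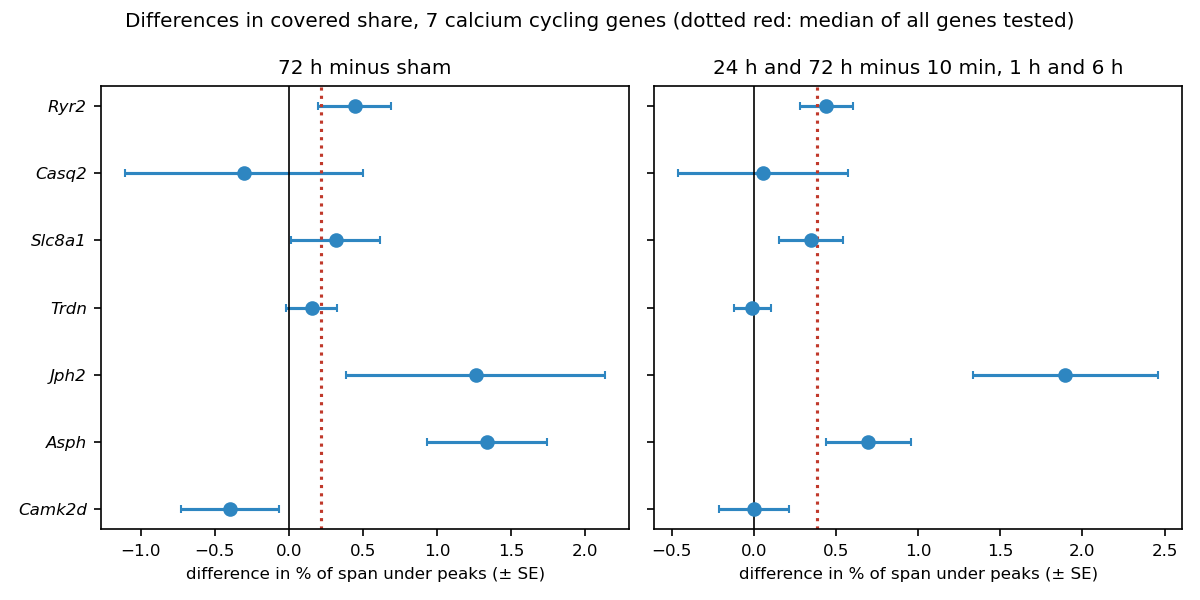
Difference in covered share (x axis, percentage points, bars ± SE from limma) for the 7 members tested (y axis), for 72 h minus sham on the left and for 24 h and 72 h minus the 3 earlier groups on the right. The dotted line is the median over all 14581 genes, 0.21 on the left and 0.39 on the right. Asph (1.34) lies farthest to the right on the left side and Jph2 (1.90) on the right side.

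Of 52 other genes of calcium handling 43 could be tested. In limma 0 passed an adjusted p of 0.05 in any of the 7 differences (0% to 0.123% of all genes). At the unadjusted level were 6 at 10 min (5.47% of all genes), 1 at 1 h (5.4%) and 4 at 6 h (6.07%). There were 3 at 24 h (5.07%), 4 at 72 h (6.89%), 3 for MI against sham (5.21%) and 4 for later against earlier (9.66%). At 72 h 27 of the 43 were higher than in sham and 16 lower, while 57.1% of all genes were higher. The median was 0.38 percentage points (0.21 over all genes). At 1 h 11 were higher and 32 lower, while 33.3% of all genes were higher, and the median was -0.52 (-0.40 over all genes). The 72 h difference was highest for Ppp1ca, a catalytic subunit of protein phosphatase 1, with 4.69 percentage points (SE 2.79, limma adjusted p = 0.813). Casq1, the skeletal muscle calsequestrin, followed with 3.81 (SE 1.82, limma adjusted p = 0.724). It was lowest for Hrc, which encodes a calcium-binding protein of the store, with -3.62 (SE 4.41, limma adjusted p = 0.926), and next for Mcu, the channel for calcium uptake into mitochondria, with -3.19 (SE 1.14, limma adjusted p = 0.590). Ppp1ca and Hrc have short spans with flanks, 7246 and 7705 bases, so a single peak weighs much in their covered share. They had a peak in 12 and 4 libraries. Sln, which encodes the pump inhibitor sarcolipin, and Strit1, which encodes the pump activator DWORF, had no peak in any library.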

How the data were processed

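MeDIP-seq peak lists of 18 libraries were used, 1 per mouse per the labels. The lists as deposited give chromosome, start, end, name and a score for each peak, called in each library separately. Per the submitters' processing notes the tools were Bowtie2 and MACS2 and the build mm10, which is GRCm38. Versions, options, any input control and the scale of the score are not given in the sources used here. No read counts were used, so depth is unknown and no counting interval is given. Exons, introns and peak sequences were not analysed here.

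Peaks of all lists were merged where they shared at least 1 base. The covered share of protein-coding genes (RefSeq, GRCm38.p6) with a peak in at least 3 libraries was tested with limma 3.58.1 (R 4.3.3) over all 18 libraries, with the variance prior following log2 span and Benjamini-Hochberg adjustment over 14581 genes for each test. The test was tried on simulated data, with gains at 72 h planted in genes with a peak in at least 9 libraries. Regions were drawn independently for each library from their observed frequency and the length of its list. Other variation between mice was not simulated, so recovery in the real libraries may differ. A gain of 1 mean covered length was recovered for 19 of 100 genes, and a gain of 3 for 84 of 100. Of the genes without a planted gain 7 were called. That 0 members passed therefore does not show that their covered share was unchanged. Exact permutation tests are two-sided, and 15 against 3 libraries cannot give less than 0.00123. Named were all 9 genes, for each the region with a peak in the most libraries, regions present in all 18, gained or lost, or within 1000 bases of a start, the 2 other calcium genes highest and the 2 lowest at 72 h, and the 5 genes most like the sum of the 9. The Ryr2 regions after the first, the last Asph and Camk2d regions, Sln and Strit1 were chosen after their values were seen. The members and lists were chosen with earlier results of these data known. Same-numbered libraries of different groups did not deviate together gene by gene (45 pairs, r from -0.0623 to 0.0761). A shift common to all genes of a library would not show in these r. The main test did not use the replicate numbers.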

Additional observations from a re-analysis of the deposited data

Results flagged for a closer look

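The covered share of Ryr2 lay above the sham mean in all 3 libraries of the 24 h group and below it in all 3 of the 1 h group, and the means of these groups differed by 0.351 percentage points. It was also below the sham mean in all 3 libraries of the 6 h group, with a difference of 0.281 between 24 h and 6 h. Slc8a1 showed the same for 24 h and 1 h, with a difference of 0.664 percentage points. These differences between MI groups were not tested, the comparisons share the 3 sham libraries, and 9 genes with 5 times give many chances for such a pattern.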

How the results depend on the processing

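No member passed an adjusted p of 0.05 under any alternative run. The lowest adjusted p was 0.138 (Ryr2, later against earlier libraries, without 72 h replicate 1). With the replicate number as a block (replicate block) 0 members passed. Every group holds the same replicate numbers, so the block cannot change a difference, only its SE and p. For the Jph2 difference of 1.90 between later and earlier libraries the limma adjusted p with the block was 0.244. The count of all genes past the threshold with the block, and without it, was 3 and 6 over the 6 groups, 7 and 6 at 72 h, 1 and 0 at 10 min, 1 and 0 at 1 h, and 2 and 0 at 6 h, and was the same for the other comparisons. Over the alternatives other than leaving out a library, counts of all genes ran from 0 to 23 at 72 h (6 as reported), 0 to 11 for MI against sham (2), 1 to 33 for later against earlier (18), 0 to 31 over the 6 groups (6), and up to 6 at 10 min, 7 at 1 h, 6 at 6 h and 7 at 24 h (0 each). Without single libraries they ran from 0 to 7 for 72 h, 0 to 10 for MI against sham, 4 to 26 for later against earlier, 0 to 11 over the 6 groups, and up to 4, 4, 5 and 6 at 10 min, 1 h, 6 h and 24 h.

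Of 942 alternative values for 45 results 35 moved and 27 changed sign, the sign being counted for single genes only. Many could not differ: leaving out a library of a group outside a comparison, or the replicate block, cannot change a difference. Medians over the members changed sign too. At 10 min the median was -0.138 as reported and 0.0656 without sham replicate 2. For MI against sham it was 0.0666 as reported and -0.116 for genes with a peak in at least 9 libraries. Without single libraries, 72 h against sham ran from -0.967 to 0.382 for Casq2, and later against earlier from -0.190 to 0.315 for Casq2, -0.0853 to 0.0307 for Trdn and -0.155 to 0.156 for Camk2d. Other sign changes of later against earlier were -0.294 (equal numbers of peaks) and -0.119 (scaled to all genes) for Casq2, and -0.149, -0.107 and -1.36 (the last as square root of covered bases) for Camk2d. With scores of 100 or more Ryr2 gave -0.000906 there, and Jph2 gave 0.109 for 1 h against sham (-3.22 to -2.15 without single libraries). The median over the members with equal numbers of peaks was 0.343 for 10 min, -0.0249 for 1 h, 0.285 for 6 h, 0.272 for 24 h and 0.0766 for later against earlier, where scores of 100 or more gave 0.128. Equal numbers of peaks also moved the median over all genes, from -0.25 to 0 at 10 min and from 0.39 to -0.06 for later against earlier. The cause was not tested.

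Region counts with scores of 100 or more were 1 gained at 10 min, 1 gained at 1 h (both the Slc8a1 region found in all 18 libraries), 0 lost at either time and 0 gained at 6 h. The count at 24 h was again 1, but it was that same Slc8a1 region, and the one reported as gained at 24 h had no peak of that score. Equal numbers of peaks gave 0 lost at 10 min, 0 lost at 1 h, 2 gained at 24 h and 2 gained at 72 h, the latter beside the Jph2 start and in Asph. Requiring 50% of a region to be covered gave 1 gained at 72 h. Without single libraries, which makes the rule easier to meet, gained regions ran from 0 to 2 for 10 min, 0 to 1 for 1 h, 1 to 2 for 6 h, 1 to 4 for 24 h and 0 to 2 for 72 h. Lost regions ran from 1 to 3 for 10 min, 1 to 5 for 1 h, 0 to 1 for 6 h and 0 to 2 for 24 h. The number of libraries and the unknown depth limit all of these values.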

Other observations

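The 5 genes whose covered share was most like the sum of the 9 over the 18 libraries were Fam155a (Pearson r = 0.856), Znrf3 (0.85), Ablim1 (0.839), Asic2 (0.811) and Tshz1 (0.804), out of 4599 genes with a span of at least 50000 bases and a peak in at least 9 libraries. These r describe libraries that share their list length: the sum itself had r = 0.753 with the share over all protein-coding genes, and the 5 genes had 0.562 to 0.853. The summed covered share of 8 fibroblast marker genes was 2.15% to 2.55% in sham and 1.82% to 3.80% in the 72 h group, and that of 6 endothelial marker genes was 3.35% to 5.81% and 3.84% to 6.11%. Tcf21 of the first list and Cldn5 of the second had no peak in any of the 18 libraries.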
